A study of Mus musculus with 4 samples.

Results

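The 10 genes described here encode the enzymes and core partners that shorten the poly(A) tails of messenger RNA in the mouse: Cnot1, Cnot2, Cnot3, Cnot6, Cnot6l, Cnot7 and Cnot8 of the CCR4-NOT complex, Pan2 and Pan3 of the PAN complex, and Parn. They were chosen by name for this role and not by a rule on their measured values, though earlier results of these data were known. All 10 of them stood on 1 row each among the 22552 symbols of every deposited table. RNA of whole testes from adult male mice of the DBA/C57 F1 background was sequenced, with 2 libraries from wild-type animals (WT) and 2 from Fam46c knockout animals (KO). The labels name no treatment, and the sources used here do not say how the Fam46c gene was disrupted. Values are FPKM, fragment counts that the authors scaled to transcript length and to the mapped fragments of the library, deposited as 1 table per library. No label states that same-group libraries derive from different animals. A p-value therefore reflects the spread among 4 libraries alone, and that spread may be technical. Fam46c itself had 236 and 133.8 FPKM in the WT libraries, against 131 and 129.9 FPKM in the KO libraries (limma log2 fold change -0.45 with an adjusted p of 1), so its level does not check the labels. The difference came from WT replicate 1: leaving it out gave -0.04, and leaving out WT replicate 2 gave -0.85.

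Most messenger RNAs leave the nucleus with a long poly(A) tail, and its removal by deadenylases is usually the first step of their decay and of their silencing. In the common model the PAN2-PAN3 enzyme trims long tails first, and CCR4-NOT, the main cytoplasmic deadenylase, then takes the tail down and hands the message on to decapping and decay. FAM46C works in the opposite direction, as a noncanonical poly(A) polymerase that adds adenosines. In the testis, tail length matters because spermatids store messages such as those of the protamines and translate them later, when transcription has stopped.

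CCR4-NOT carries its catalytic subunits as pairs of paralogs that take the same place in the complex, CNOT7 or CNOT8 at one site and CNOT6 or CNOT6L at the other. How well short fragments can tell such pairs apart depends on their sequence, so the most alike stretch of each pair is shown, from the coding sequences of GENCODE M21 on the GRCm38 build. Each stretch covers 90 bases, read 5′ to 3′ on the coding strand, and capitals mark the bases at which the partners differ. In the first pair it spans bases 402 to 491 of the coding sequence, counted from the start codon, and 15 of the 90 bases differ.
Cnot7: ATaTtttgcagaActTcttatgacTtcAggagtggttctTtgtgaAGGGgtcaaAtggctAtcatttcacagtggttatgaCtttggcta
Cnot8: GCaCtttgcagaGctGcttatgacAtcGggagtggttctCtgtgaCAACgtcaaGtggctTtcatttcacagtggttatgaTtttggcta

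In the second pair the stretch spans bases 814 to 903 of both coding sequences, and 13 of the 90 bases differ.
Cnot6: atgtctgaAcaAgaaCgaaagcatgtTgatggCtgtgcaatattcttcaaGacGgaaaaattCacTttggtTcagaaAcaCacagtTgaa
Cnot6l: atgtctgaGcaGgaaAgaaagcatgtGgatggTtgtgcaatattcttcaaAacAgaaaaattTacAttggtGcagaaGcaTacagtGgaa

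Over the whole coding sequence Cnot7 and Cnot8 were identical at 71.5% of 854 aligned bases, and Cnot6 and Cnot6l at 73.3% of 1650. The longest identical run was 20 bases in each pair, and none of the 806 windows of 50 bases in Cnot7, nor of the 1622 in Cnot6, was found in its partner. A coding fragment of that length therefore matched only 1 member of a pair. Shared 50-base windows were found with other annotated transcripts instead. A processed pseudogene outside the deposited symbols shared 10.6% of the windows of Cnot1 (Gm6158), 27.2% of those of Cnot3 (Gm9207) and 24.4% of those of Cnot8 (Gm18860). The sources used here do not say how fragments from those windows were placed. Overlapping neighbours shared 2.27% of the windows of Cnot3 (Leng1) and at most 1.36% of those of Cnot7 (Zdhhc2).

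All 10 deadenylase transcripts were present in every testis library, with a mean 18.2 times as high for the highest as for the lowest. FPKM are per transcript length, so levels can be set beside each other between genes. For Cnot1, Cnot3 and Cnot8 the unknown placement of fragments shared with pseudogenes limits this. Cnot1, whose protein is the scaffold on which the CCR4-NOT complex is built, was by far the highest: the WT libraries held 57.9 and 57.5 FPKM and the KO libraries 50.5 and 53.7. Pan3, Cnot2 and Cnot7 followed, with means over the 4 libraries of 20.6, 20.01 and 19.7 FPKM, and their ranges overlapped, so their order is not settled. Cnot6 came next with a mean of 15.5 FPKM and lay below Cnot7 in all 4 libraries. Pan2, Parn and Cnot8 had means of 7.64, 7.29 and 5.88 FPKM, and neighbours among these overlapped in range. Cnot3 with 4.75 and Cnot6l with 3.02 FPKM were the lowest, each below its upper neighbour in all 4 libraries. Among the 12258 symbols whose mean reached 1 FPKM, Cnot1 stood at the 85.8th percentile of mean level and Cnot6l at the 23.1st.

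**Figure D1:**
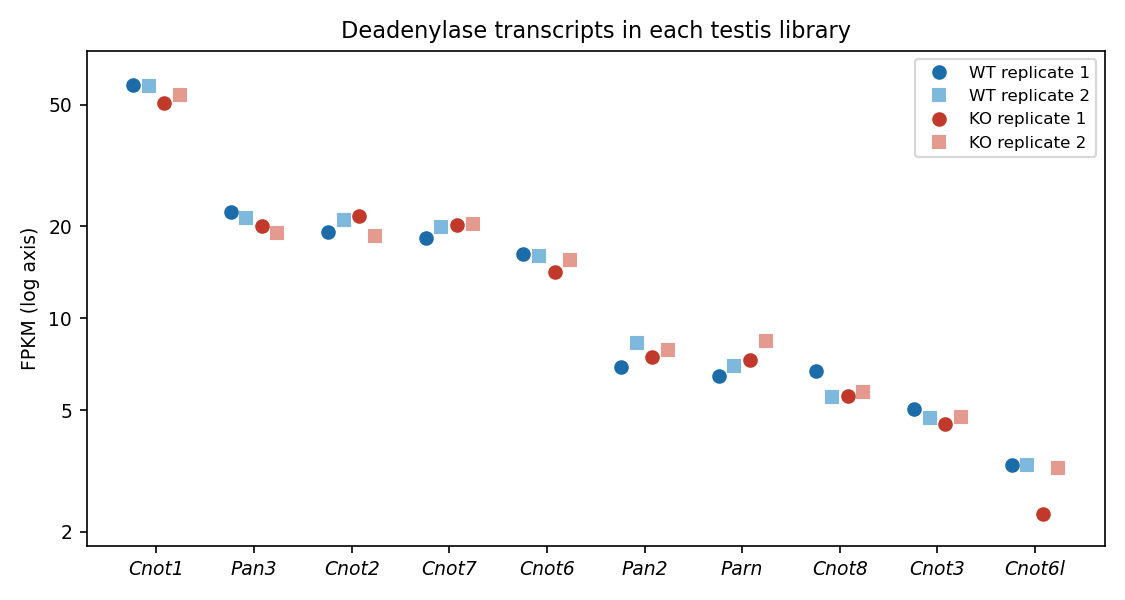
FPKM of the 10 deadenylase genes (log axis) in each of the 4 testis libraries, ordered by their mean; every point is 1 library. Cnot1 lies between 50.5 and 57.9 FPKM, apart from all others, and the Cnot6l value of KO replicate 1, 2.28, is the lowest point.

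The comparison of KO with WT asks which testis transcripts depend on Fam46c, and for the deadenylases no difference passed the test. A gene was called when limma's moderated test on log2(FPKM + 1), two-sided with Benjamini-Hochberg adjustment over all 12258 symbols, gave an adjusted p under 0.05. Of the 10 members 0 were called, against 0.114% of all tested symbols. None rose (0.0245% of all did) and none fell (0.0897% of all did). Of the members 0 had an unadjusted p under 0.05, against 2.02% of all. The limma adjusted p was 1 for every member, and no other tool was run. The log2 fold changes ran from -0.21 for Cnot6l to 0.20 for Parn, with 7 negative and 3 positive and a median of -0.08, beside a median of -0.01 over all tested symbols. A p that misses the threshold does not show equal levels, so the 95% interval of each difference is given below. In whole testes fewer cells of a type and less RNA per cell cannot be told apart.

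Differences of these sizes were common. Of all tested symbols, 10.8% had a log2 difference at least as large as that of Cnot6l, 11.4% one at least as large as that of Parn, and 21% one at least as large as that of Cnot1. In 6 members the 2 KO values lay both above or both below the 2 WT values, against 20.1% of all tested symbols. In 4 of the 6 (Cnot1, Cnot6, Cnot6l and Pan3) KO was lower, against 10.6% of all, and in 2 (Cnot7 and Parn) it was higher, against 9.47%. This count used no test, and it depends on how libraries are scaled. With libraries set to the same total FPKM, Cnot7 and Parn overlapped and the same 4 lay lower, for a count of 4. Under that scaling 22.7% of all tested symbols did not overlap, and 16.2% of all lay lower in KO. After median scaling, chosen like the former once the data had been seen, the count was 5, with Parn higher and Cnot1, Cnot3, Cnot6 and Pan3 lower. There 21.4% of all tested symbols did not overlap, 10.8% higher and 10.6% lower in KO. Cnot1, Cnot6 and Pan3 thus lay lower in KO under all 3 of these scalings.

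**Figure D2:**
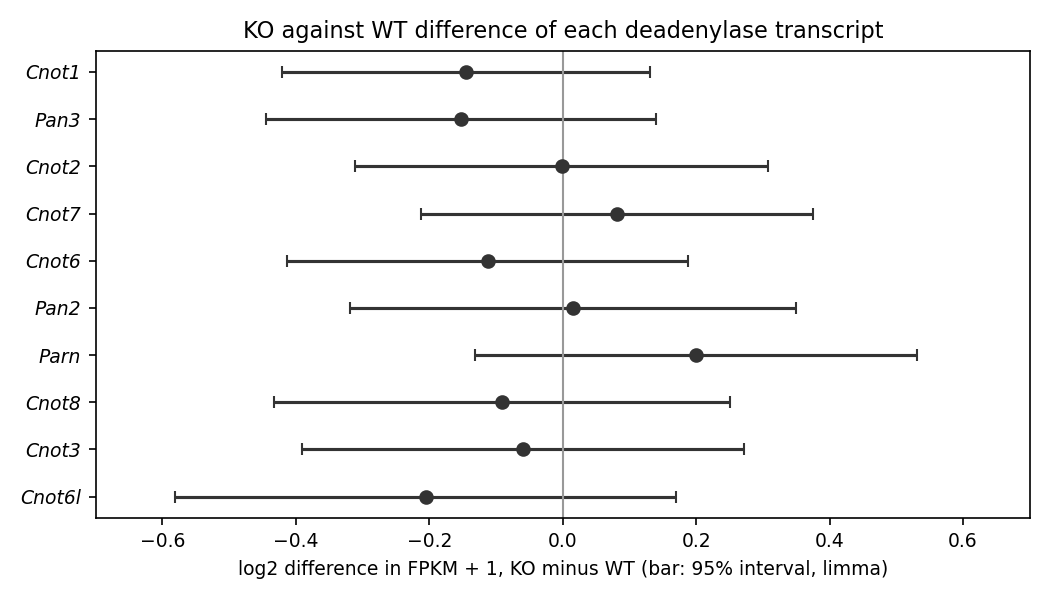
Difference of KO minus WT on the log2(FPKM + 1) scale for each deadenylase gene, with the 95% interval from limma over 2 WT and 2 KO libraries. Every interval includes 0, and the point estimates run from -0.21 for Cnot6l to 0.20 for Parn.

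The scaffold and the NOT module come first. Cnot1 (chr8:95719451-95807464 on the minus strand of GRCm38) averaged 57.7 ± 0.288 FPKM in the WT libraries and 52.1 ± 2.25 FPKM in the KO libraries (SD, n = 2 each). The fold change on the log2 scale was -0.15 (SE 0.13, limma adjusted p = 1), with an interval of -0.42 to 0.13. Both KO libraries lay below both WT libraries, which differed from each other by less than 1 FPKM. Cnot2 and Cnot3 form the module that docks on the end of the scaffold and receives many RNA-binding partners. Cnot2 (chr10:116485161-116581511, minus strand) had 19.1 and 20.9 FPKM in the WT libraries, against 21.5 and 18.5 FPKM in the KO libraries. The KO libraries enclosed the WT libraries, and the log2 fold change was 0.00 with an interval of -0.31 to 0.31 (limma adjusted p = 1). Cnot3 (chr7:3645268-3661109, plus strand) had 5.04 and 4.69 FPKM in the WT libraries, against 4.50 and 4.76 FPKM in the KO libraries, and the groups overlapped. Its level was 8.16 to 8.90 FPKM for each 100 FPKM of Cnot1, although the proteins sit in the same complex, whereas Cnot2 stood at 33.0 to 42.6.

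The nuclease pair CNOT7 and CNOT8 belongs to the DEDD family of exonucleases, named for its catalytic acidic residues. CNOT7 is needed for male fertility in the mouse, as background from knockout animals. Cnot7 (chr8:40492540-40515847, minus strand) had 18.3 and 19.9 FPKM in the WT libraries, against 20.2 and 20.3 FPKM in the KO libraries. Both KO values lay above the WT values, but the group means differed by less than the WT libraries did from each other, and the log2 fold change was 0.08 (SE 0.13, interval -0.21 to 0.38, limma adjusted p = 1). Cnot8 (chr11:58104153-58118594, plus strand) had 6.71 and 5.51 FPKM in the WT libraries, against 5.57 and 5.73 FPKM in the KO libraries. WT replicate 1 was the highest library and the other WT library the lowest, so the groups overlapped. The log2 fold change of Cnot8 was -0.09 (SE 0.16, interval -0.43 to 0.25) and became 0.03 without WT replicate 1.

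The other catalytic pair, CNOT6 and CNOT6L, belongs to a different nuclease family, the EEP phosphatases and nucleases, and is the mammalian counterpart of yeast Ccr4. Cnot6 (chr11:49671503-49712723, minus strand) had 16.2 and 16.02 FPKM in the WT libraries, against 14.2 and 15.5 FPKM in the KO libraries. Both KO libraries lay below the WT libraries, with a log2 fold change of -0.11 (SE 0.14, interval -0.41 to 0.19, limma adjusted p = 1). Cnot6l (chr5:96070333-96164171, minus strand) had 3.30 and 3.29 FPKM in the WT libraries, against 2.28 and 3.23 FPKM in the KO libraries. The lower KO mean came from KO replicate 1, while KO replicate 2 lay close under WT. The log2 fold change of Cnot6l was -0.21 (SE 0.17, interval -0.58 to 0.17), -0.39 without KO replicate 2 and -0.02 without KO replicate 1. Cnot6l was also the member with the fewest fragments. From the steps that whole fragments leave in low FPKM values, KO replicate 1 was put at about 17000000 fragments and the other libraries at 19500000 to 21400000. A Cnot6l transcript of 3170 bases would then rest on about 120 fragments in the poorest library, a counting error of 9.02%. The same reckoning gives 7200 fragments and 1.18% for Cnot1.

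PAN2 is the nuclease of its complex, and PAN3 is the adaptor that ties it to the tail through the poly(A)-binding protein. Pan2 (chr10:128303335-128321358, plus strand) had 6.93 and 8.29 FPKM in the WT libraries, against 7.46 and 7.89 FPKM in the KO libraries. The KO libraries lay between the WT libraries, and the log2 fold change was 0.01 (interval -0.32 to 0.35, limma adjusted p = 1). Pan3 (chr5:147430161-147548502, plus strand) had 22.2 and 21.2 FPKM in the WT libraries, against 19.95 and 18.9 FPKM in the KO libraries. The groups did not overlap, and the log2 fold change was -0.15 (SE 0.13, interval -0.44 to 0.14, limma adjusted p = 1). On the scale of FPKM + 1 that interval runs from 0.735-fold to 1.10-fold.

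PARN, a cap-binding deadenylase of the DEDD family, is best known for trimming the ends of small nucleolar RNAs and of telomerase RNA. Parn (chr16:13537960-13668170, minus strand) had 6.46 and 6.96 FPKM in the WT libraries, against 7.29 and 8.44 FPKM in the KO libraries. Both KO libraries lay above both WT libraries, with means of 6.71 ± 0.3496 and 7.87 ± 0.812 FPKM (SD, n = 2 each). The Parn log2 fold change of 0.20 (SE 0.15, interval -0.13 to 0.53, limma adjusted p = 1) was the highest among the members. KO replicate 2 alone gave 0.29 and KO replicate 1 alone 0.11.

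The balance within each pair can be read inside a library, where scaling cancels. The unknown placement of fragments that Cnot8 shares with a pseudogene remains a limit on its pair. Cnot7 held the larger part of its pair in every library, with 73.2% and 78.3% of the summed FPKM in the WT libraries, against 78.4% and 78.01% in the KO libraries. WT replicate 1 stood apart, and the other 3 libraries lay within 1 percentage point. Cnot6 was the major partner of the other pair, at 4.79 to 6.22 times the level of Cnot6l. The Cnot6l share was 16.9% and 17.1% in the WT libraries, against 13.9% and 17.3% in the KO libraries, with KO replicate 1 the low library. The adaptor Pan3 exceeded its nuclease Pan2 by 2.40 to 3.20 times, and the Pan2 share was 23.8% and 28.1% in the WT libraries, against 27.2% and 29.4% in the KO libraries. The KO means differed from WT by 2.44, -1.43 and 2.39 percentage points for Cnot7, Cnot6l and Pan2. Exact two-sided permutation tests gave p of 0.667, 1 and 0.667 (adjusted over the 3 shares, 1 for each), in a design that cannot give less than 0.333.

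**Figure D3:**
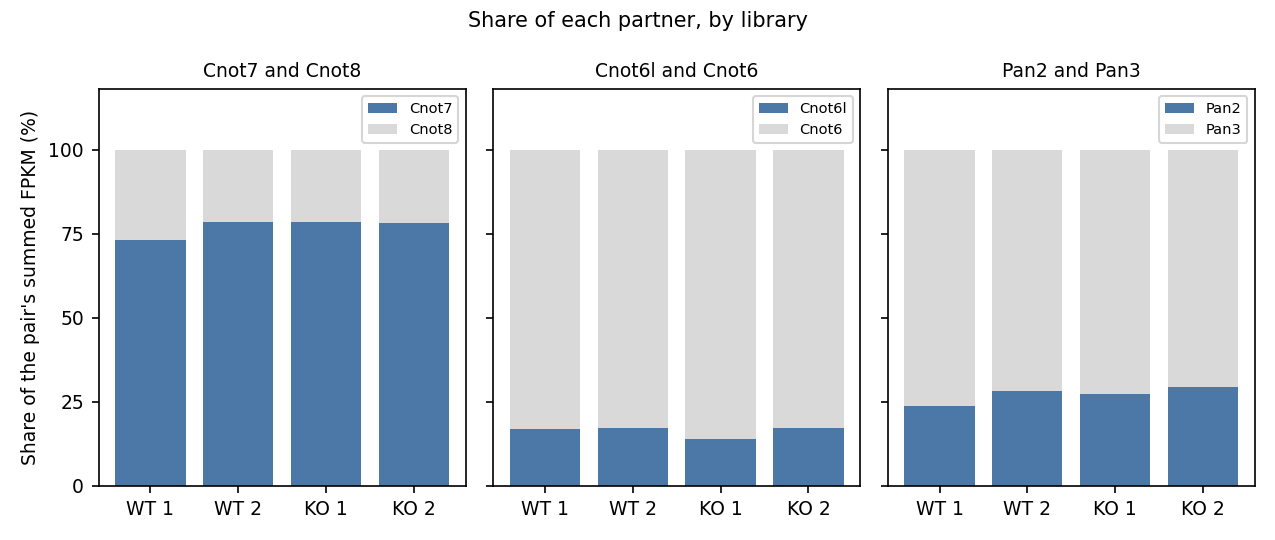
Share (%) of the summed FPKM of each pair held by Cnot7, Cnot6l and Pan2 (blue) and by its partner (grey) in each library. Cnot7 holds 73.2% to 78.4% of its pair, Cnot6l 13.9% to 17.3% and Pan2 23.8% to 29.4%.

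Summed over the 6 nuclease genes (Cnot6, Cnot6l, Cnot7, Cnot8, Pan2 and Parn), the libraries held 57.9 and 59.96 FPKM for WT and 56.99 and 61.1 FPKM for KO. The KO libraries enclosed the WT libraries. Of this sum Cnot7 made up 31.7% and 33.2% in WT and 35.4% and 33.3% in KO, and Parn 11.2% and 11.6% in WT and 12.8% and 13.8% in KO. Cnot6 made up 27.9% and 26.7% in WT and 24.9% and 25.3% in KO, while Cnot6l held 5.69% and 5.49% in WT, against 4.002% and 5.28% in KO. The groups did not overlap in these 4 shares, 2 higher and 2 lower in KO, and overlapped in those of Cnot8 and Pan2. As FPKM, 20.1% of all tested symbols did not overlap, and no background was worked out for shares. Shares of 1 sum are bound to each other, and 2 libraries against 2 cannot give an exact p under 0.333. All 10 members together held 162 and 164 FPKM in the WT libraries, against 154 and 157 FPKM in the KO libraries, with Cnot1 as its largest part.

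The remaining subunits of CCR4-NOT were examined next, from a list of 5 that were all tested. Limma called 0 in either direction, and the median log2 fold change was -0.04. Cnot4, an E3 ubiquitin ligase that binds the NOT module, had 36.9 and 37.1 FPKM in the WT libraries, against 36.4 and 29.4 FPKM in the KO libraries, second in level to the scaffold among the subunits tested. Cnot10, which forms a module with CNOT11 on the scaffold, had 22.2 and 20.6 FPKM in the WT libraries, against 20.1 and 18.9 FPKM in the KO libraries. Both had KO values below WT without overlap, as had 10.6% of all tested symbols. Their limma log2 fold changes were -0.17 and -0.13, both with an adjusted p of 1. Without KO replicate 2, that of Cnot4 was -0.02. Rqcd1, the older symbol of Cnot9, and D1Bwg0212e, that of Cnot11, had log2 fold changes of 0.04 and 0.08 and overlapping groups.

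Adaptor proteins bring CCR4-NOT to particular messages, and their transcripts included the 1 large difference found around the complex. Of 24 listed adaptors 21 were tested and limma called 0. The median of their log2 fold changes was -0.02. At an unadjusted p under 0.05, 0 were higher (0.914% of all tested symbols were) and 2 lower (1.11% of all were), 1 of them Btg3, whose coding sequence stands under a second symbol as well. The 3 germ cell adaptors Nanos1, Nanos2 and Nanos3 stayed under a mean of 1 FPKM and were not tested. Btg3, of the BTG and TOB family that binds CNOT7 and CNOT8, had 8.09 and 3.997 FPKM in the WT libraries, against 6.1e-05 and 1.48 FPKM in the KO libraries. Its log2 fold change was -2.10 (SE 0.36, limma unadjusted p = 0.000104, adjusted p = 0.0794). Btg2, an early-response member of the same family, had 2.34 and 1.60 FPKM in the WT libraries, against 1.19 and 1.14 FPKM in the KO libraries (log2 fold change -0.44, limma unadjusted p = 0.0262, adjusted p = 1). Zfp36, which binds AU-rich elements, had a log2 fold change of -0.32 with overlapping groups, and -0.07 without WT replicate 1. Dnd1, a germ cell RNA-binding protein, had 2.57 and 2.35 FPKM in the WT libraries, against 3.52 and 2.74 FPKM in the KO libraries (limma log2 fold change 0.25 with an adjusted p of 1).

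A second symbol carries the coding sequence of Btg3. Gm7334, looked up after the values had been seen, is annotated as a processed pseudogene (chr17:50698688-50699443, plus strand of GRCm38). It matched the coding sequence of Btg3 (chr16:78332637-78377192, minus strand) at 756 of 756 bases, so that all 707 windows of 50 bases were shared. The first 90 bases, in lower case because no base differs, serve for both.
Btg3 and Gm7334: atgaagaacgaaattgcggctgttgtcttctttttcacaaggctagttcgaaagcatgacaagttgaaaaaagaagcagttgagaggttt

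Gm7334 had 0.000627 and 2.86 FPKM in the WT libraries, against 8.62 and 6.59 FPKM in the KO libraries, high where Btg3 was low. Both together held 8.09 and 6.85 FPKM in the WT libraries, against 8.62 and 8.07 FPKM in the KO libraries, and the groups overlapped. With both symbols added and the fit repeated, the log2 fold change was 0.15 (SE 0.15, interval -0.19 to 0.48, limma adjusted p = 1). FPKM are per transcript length, and the annotated lengths are 1414 bases for Btg3 and 756 for Gm7334. A fragment moved between the symbols thus changes the sum, so neither the sum nor this fit shows equal fragment totals. The Btg3 share of the sum was 58.3% in WT replicate 2 and 18.4% in KO replicate 2, and nearly all or nearly none in the other 2 libraries. FPKM alone cannot tell from which of these loci coding fragments came.

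**Figure D4:**
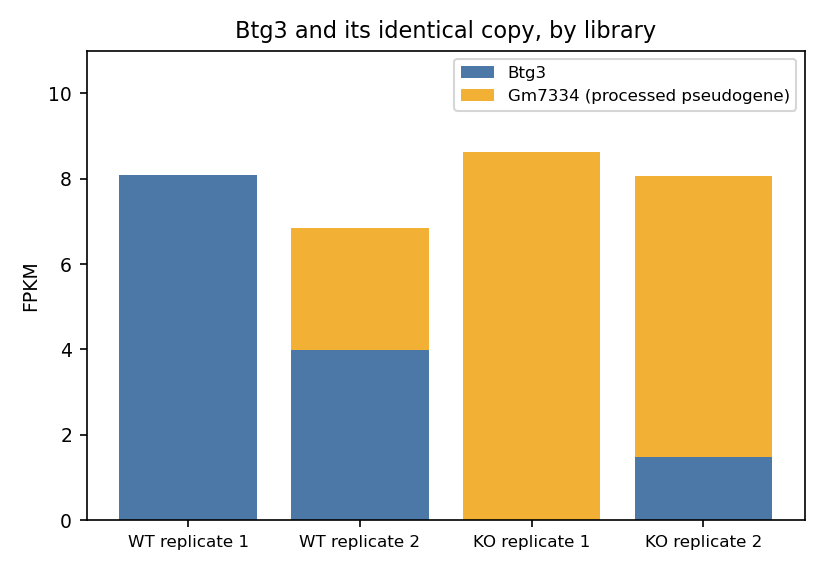
FPKM of Btg3 (blue) and of the processed pseudogene Gm7334 (yellow), stacked for each library. The stacks reach 8.09 and 6.85 FPKM in the WT libraries, against 8.62 and 8.07 FPKM in the KO libraries, while the split between the symbols changes.

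Other nucleases of the deadenylase families, and the decay steps that follow deadenylation, gave no calls. All 6 listed nucleases (0 called) had negative log2 fold changes, as had 52.3% of all tested symbols, with a median of -0.07 and the smallest at -0.01. Pde12, which removes tails from mitochondrial RNA, had 3.14 and 2.68 FPKM in the WT libraries, against 2.43 and 2.31 FPKM in the KO libraries (limma log2 fold change -0.21 with an adjusted p of 1). Angel2, Ccrn4l (the circadian Noct) and Pnldc1, the trimmer of piRNA ends in germ cells, lay between -0.10 and -0.06 with overlapping groups, and without WT replicate 1 Ccrn4l and Pnldc1 turned to 0.02 and 0.09. Of 19 decapping and 5′ decay genes 17 were tested and limma called 0, with a median of 0.04, 10 positive and 7 negative. Lsm7, a subunit of the LSM ring that binds shortened tails, had 10.8 and 11.6 FPKM in the WT libraries, against 7.51 and 8.35 FPKM in the KO libraries. Its log2 fold change was -0.45 (SE 0.15, limma unadjusted p = 0.00993, adjusted p = 1), and it was the 1 member of this list under an unadjusted p of 0.05. Lsm4 and Lsm1 of the same ring had log2 fold changes of 0.20 and 0.20 with overlapping groups. Xrn1, the exonuclease that degrades decapped messages, had 2.73 and 2.75 FPKM in the WT libraries, against 2.25 and 2.30 FPKM in the KO libraries (limma log2 fold change -0.19 with an adjusted p of 1). Of the 17 exosome and SKI genes, which degrade messages from the 3′ end, limma called 0, with a median of -0.02. Exosc4, Wdr61, Ttc37 and Exosc9 had log2 fold changes of 0.22, 0.08, 0.08 and -0.13. Over the 5 lists together, 66 genes were tested and 3 had an unadjusted p under 0.05 (Btg3, Btg2 and Lsm7), which is 4.55%, all lower in KO, against 2.02% of all tested symbols in either direction. Without overlap, 14 (21.2%) lay lower in KO, against 10.6% of all, and 3 (4.55%) higher, against 9.47%. Both counts of lower genes include Btg3, whose value depends on its split with Gm7334. The counts without overlap are for the deposited scaling and were not repeated for these lists under others. After total scaling 16.2% of all tested symbols lay lower in KO.

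**Figure D5:**
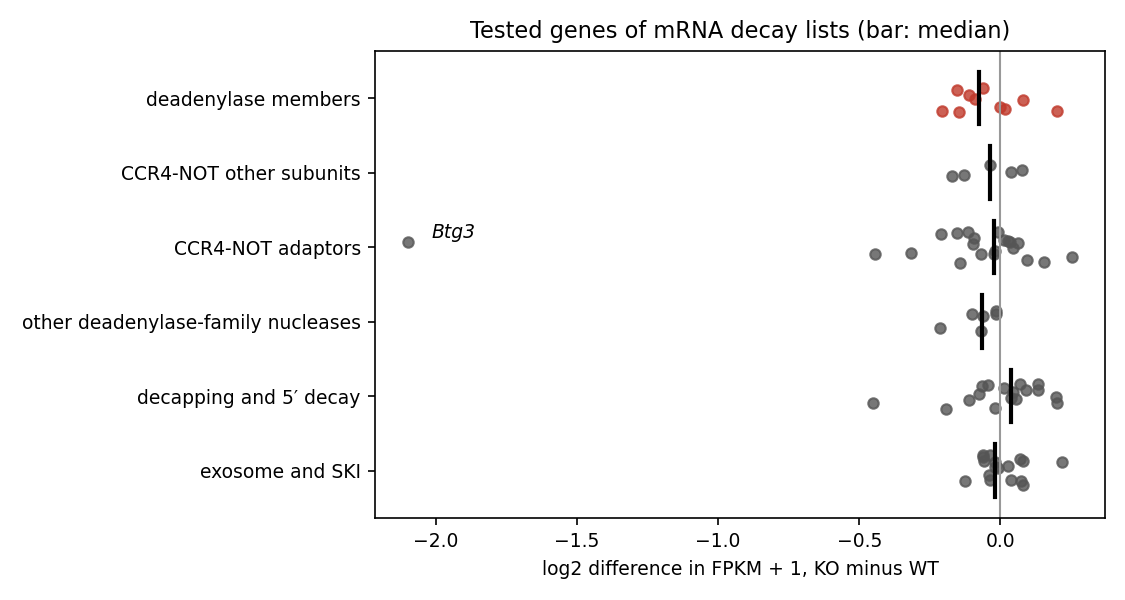
KO minus WT difference on the log2(FPKM + 1) scale for each tested gene of the deadenylases (red) and of 5 lists of mRNA decay genes (grey), with the median of each list as a bar. Medians lie between -0.08 and 0.04, and Btg3 at -2.10 is the outlying point.

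Facts of the whole data set bear on these values as follows. Total FPKM per library ran from 489702 to 528756, with KO replicate 1 the highest. The SD of log2 differences over tested symbols was 0.255 between the WT libraries and 0.262 between the KO libraries. Between groups it ran from 0.240 (WT replicate 2, KO replicate 1) to 0.291 (WT replicate 1, KO replicate 2). By this measure the libraries did not separate by group. All 24 listed genes of spermatogonia, spermatocytes and spermatids were above 0 in every library. This alone does not check the tissue label, since 17833 to 18076 of the 22552 symbols were above 0 per library. The 8 spermatid genes matched the label by level, between the 96.1st and the 99.99th percentile of tested symbols. Summed levels of these germ cell markers overlapped between the groups in each of the 3 lists, at 1053 to 1090 FPKM in WT and 1003 to 1096 in KO for spermatocytes. Sums of Sertoli cell genes and of peritubular and endothelial genes overlapped too. Sums of 8 Leydig cell genes were lower in KO (1281 to 1395 FPKM in WT, 309.9 to 637 in KO), and Insl3 carried this. Without Insl3 the sums overlapped, at 181 and 259 FPKM for WT and 258 and 121 FPKM for KO, and 6 of the other 7 genes overlapped. Sums of 5 red blood cell genes were lower in KO (40.7 to 50.6 in WT, 7.48 to 12.6 in KO), also without Hba-a1 (28.4 and 20.9 in WT, 11.6 and 7.22 in KO). Hba-a1, Hbb-b2 and Beta-s lay lower in KO without overlap, while Alas2 overlapped and Hbb-b1 was at most 8.6e-05 FPKM. Sums of 6 macrophage genes were higher in KO (352 to 389.7 in WT, 417 to 427 in KO), nearly all of it Aif1. Without Aif1 the sums overlapped, while each of the other 5 genes had a lower mean in KO. The groups overlapped in 3 of these 5 genes, and KO lay below WT in Csf1r and H2-Aa. Sums of 7 epididymis genes, 2 of them at 0 in every library, were higher in KO (4.77 to 4.91 in WT, 5.30 to 6.92 in KO). Of these genes 3 were tested. Defb41 had 0.873 and 0.392 FPKM in WT, against 2.49 and 1.53 FPKM in KO, while Rnase10 and Spink8 overlapped between the groups. The part of these genes or cells in the deadenylase values was not tested.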

How the data were processed

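The deposited values are FPKM, 1 table per library, per the file headers. The mm9 build and the tools Cufflinks 2.0.2, TopHat2 2.0.6 and Cuffdiff are named without role, per the submitters' processing notes. Annotation, strand setting and treatment of multiply mapped fragments: not given in the sources used here. FPKM of repeated symbols were summed. The 12258 symbols whose mean reached 1 FPKM were fitted as log2(FPKM + 1) in limma 3.58.1 (R 4.3.3) without covariates, with variances moderated across genes along an intensity trend (2 residual and 9.48 prior degrees of freedom). A fold change on this scale understates that of low genes. The method was tested on simulated data. Alternatives were other pseudocounts, filters, scalings and variance settings, a replicate block and leaving out each library. Depth is a rough estimate from the lengths of single-transcript genes, since FPKM hold no counts, and its errors cover counting only. Sequences, loci and lengths come from GENCODE M21 (GRCm38), aligned with Biopython 1.88; no coordinates of the mm9 build were used. Each sequence shown for the paralog pairs is the gap-free stretch of 90 aligned bases with the most identical bases. For Btg3 and Gm7334 the stretch with the most differing bases was sought, and since no base differed the first is shown. The members and lists were chosen with earlier results of these data known. Named were all members, Fam46c and up to 4 genes of smallest p per decay list; Gm7334 and the pseudogenes were added after the values were seen.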

Additional observations from a re-analysis of the deposited data

How the results depend on the processing

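Under all 14 alternative settings 0 deadenylase members were called, and their median log2 fold change stayed between -0.11 and -0.04. The count of genes called in all, 14, was 2 with no filter, 9 with a mean of at least 5 FPKM (which leaves out Cnot3 and Cnot6l), 7 after total scaling, 6 after median scaling, 6 after quantile normalization, 8 with robust moderation and 68 with the replicate block, and it ran from 9 to 20 with 1 library left out, 9 being the count without KO replicate 2. The same-numbered libraries showed no pairing (correlation of their deviations across genes -0.03), so the replicate block rests on a number alone. It called 1 decay list gene against 0, Btg3 (log2 fold change -2.10, limma adjusted p = 8.15e-25), which was also called without KO replicate 2 (-2.75, limma adjusted p = 0.00792) and turned to 0.15 when summed with Gm7334; decay list calls ran from 0 to 1 with 1 library left out. Directions turned for small values. Cnot2 became 0.0072 after median scaling and 0.0033 after quantile normalization, and Pan2 became -0.013 after total scaling. With 1 library left out, log2 fold changes ran from -0.11 to 0.10 for Cnot2, from -0.10 to 0.13 for Pan2, from -0.21 to 0.031 for Cnot8, from -0.092 to 0.17 for Rqcd1, from -0.16 to 0.020 for Ccrn4l, from -0.22 to 0.093 for Pnldc1, from -0.015 to 0.45 for Exosc4, from -0.29 to 0.041 for Exosc9 and from -0.044 to 0.20 for Wdr61. The Cnot7 share difference ran from -0.099 to 4.98 percentage points the Cnot6l share difference from -3.14 to 0.27 and the Pan2 share difference from 0.241 (without WT replicate 1) to 4.53 (without WT replicate 2). Of the 31 named genes, 9 thus turned in sign and 16 more kept it but moved by over 1.5 times with 1 library left out, among them Cnot3 (-0.10 to -0.017), Cnot6 (-0.17 to -0.054), Cnot6l (-0.39 to -0.023), Cnot7 (0.027 to 0.14), Parn (0.11 to 0.29), Fam46c (-0.85 to -0.038), Zfp36 (-0.56 to -0.069), Cnot4 (-0.32 to -0.02, the latter without KO replicate 2), Lsm1 (0.021 to 0.37) and Lsm4 (0.06 to 0.34). The cause of these shifts was not tested.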
